A study of Mus musculus with 6 samples.

Results

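The 4 mouse Hox clusters were examined in lists of H3K27ac peaks from C2C12 cells. H3K27ac is acetylation of lysine 27 of histone H3, a mark of active promoters and enhancers, and C2C12 is a mouse myoblast line that forms myotubes when the serum in its medium is lowered. The clusters were taken as fixed windows of the mouse genome build mm9, and a peak belonged to a cluster if it overlapped the window by at least 1 bp. The windows were chr6:52095000-52225000 for HoxA (130 kb), chr11:96045000-96240000 for HoxB (195 kb), chr15:102740000-102875000 for HoxC (135 kb) and chr2:74490000-74615000 for HoxD (125 kb). They stand for 38 member genes, of which 10 are in HoxA, 10 in HoxB, 9 in HoxC and 9 in HoxD. Of 243962 peaks in the lists, 188 lay in these windows. The lists came from 3 H3K27ac libraries of the same line at different stages of culture: proliferating myoblasts, 36 h of differentiation and 72 h of differentiation. The labels name no genotype change and no added agent for them. Each library pooled the DNA of 4 ChIP assays, each stage had 1 H3K27ac library and 1 input library, and the inputs are not analysed here on their own. The spread between cultures was therefore not measured, and no test or p-value accompanies any difference between stages.

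Hox genes encode homeodomain transcription factors that give cells along the body axis and the limb their positional identity. Their order along the chromosome follows the order in which they act from head to tail, with low paralog numbers such as Hoxa2 and Hoxb1 toward the head and high numbers such as Hoxa13 and Hoxd13 toward the tail and the tip of the limb. Cultured cells often keep the Hox pattern of the body region they came from, and inactive stretches of the clusters are typically held under Polycomb repression. In muscle, Hoxa11 has been tied to control of Myod1 in limb precursors, and Hoxa9 to the function of muscle stem cells in aged animals.

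The member genes by cluster, in the order of their leftmost base in the RefSeq gene table, were as follows. In HoxA they were Hoxa2, Hoxa3, Hoxa4, Hoxa5, Hoxa6, Hoxa7, Hoxa9, Hoxa10, Hoxa11 and Hoxa13, with the low paralog numbers at the lower coordinates. The other clusters run the opposite way. HoxB held Hoxb13, Hoxb9, Hoxb8, Hoxb7, Hoxb6, Hoxb5, Hoxb3, Hoxb4, Hoxb2 and Hoxb1. HoxC held Hoxc13, Hoxc12, Hoxc11, Hoxc10, Hoxc9, Hoxc8, Hoxc6, Hoxc5 and Hoxc4. HoxD held Hoxd13, Hoxd12, Hoxd11, Hoxd10, Hoxd9, Hoxd8, Hoxd3, Hoxd4 and Hoxd1. The clusters also carry microRNA genes that lie between these Hox genes, and the mature sequences of 5 microRNAs are shown. Members of the miR-196 seed family are encoded in clusters with and without peaks, and those of the miR-10 family only in clusters without. The miR-615-3p seed is shared with none of the others shown. The seed, bases 2 to 8, is in capitals. The sequences are from RefSeq on build GRCm38.p6, each written 5′ to 3′.
miR-196b-5p (HoxA): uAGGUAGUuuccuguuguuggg
miR-196a-5p (HoxB and HoxC): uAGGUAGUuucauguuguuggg
miR-10a-5p (HoxB): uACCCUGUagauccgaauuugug
miR-10b-5p (HoxD): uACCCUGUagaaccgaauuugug
miR-615-3p (HoxC): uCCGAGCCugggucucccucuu
The seed AGGUAGU was shared by miR-196a-5p and miR-196b-5p, and the seed ACCCUGU by miR-10a-5p and miR-10b-5p. The mature miR-196a-5p is written identically for Mir196a-1, which lies between Hoxb13 and Hoxb9, and Mir196a-2, which lies between Hoxc10 and Hoxc9. Its HoxB copy thus lies in a cluster without any H3K27ac peak in these lists, and its HoxC copy in the cluster with the most. Both miR-10 genes lie in clusters without a peak.

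The RefSeq promoter table held 22 of the 38 member genes: 9 of 10 in HoxA, 3 of 10 in HoxB, 1 of 9 in HoxC and 9 of 9 in HoxD. Over the 250 bases before each start, the 10 HoxA promoters held a median of 15.5 CpG dinucleotides (range 3 to 35) and the 10 HoxD promoters a median of 12.5 (range 2 to 31). The median over all 32851 promoters in the table was 6.0, and 92.1% of them held at least 1 CpG. The motif searched was CG, which reads the same on both strands. HoxB and HoxC had too few entries for this comparison. The most CpG-rich promoter of HoxA and that of HoxD are shown because they belong to the same paralog group at the high-number end of a cluster with peaks and of a cluster without any, with CG in capitals. The last 21.7 kb of the HoxA window, at the Hoxa13 end, also held no peak at any stage. Positions are on GRCm38.p6 and are not interchangeable with the mm9 positions of the peaks.
Hoxa13, chr6:52260881-52261130, minus strand: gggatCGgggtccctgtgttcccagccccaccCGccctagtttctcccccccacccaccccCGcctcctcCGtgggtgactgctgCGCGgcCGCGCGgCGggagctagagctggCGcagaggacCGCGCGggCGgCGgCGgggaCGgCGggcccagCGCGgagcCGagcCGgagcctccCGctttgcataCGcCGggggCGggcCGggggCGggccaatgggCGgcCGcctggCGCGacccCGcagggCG
Hoxd13, chr2:74667975-74668224, plus strand: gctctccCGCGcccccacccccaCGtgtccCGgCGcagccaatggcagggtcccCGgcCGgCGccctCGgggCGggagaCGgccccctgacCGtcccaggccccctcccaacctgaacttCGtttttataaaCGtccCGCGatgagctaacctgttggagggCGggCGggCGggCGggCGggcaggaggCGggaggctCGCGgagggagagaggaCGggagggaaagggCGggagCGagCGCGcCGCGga
The Hoxa13 sequence held 35 CpG and the Hoxd13 sequence 31. Hoxa13 and Hoxd13 encode the factors that pattern the hand and foot plate. No gene annotation on mm9 was used here, so peaks are placed by their distance along a window and not assigned to a gene.

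In order of stage the lists held 57101, 89717 and 97144 peaks, and 1.22%, 2.18% and 2.48% of the genome between the outermost peaks of each chromosome lay under them. Fragment numbers at each summit were recovered from the deposited fold enrichment and p-value, and placed the ChIP depth of 36 h at 1.20 times and that of 72 h at 1.1 times the proliferation depth. The weakest called peaks held 9, 9 and 8 summit fragments. Peaks at muscle marker genes, which would check the labelled cell type, are not analysed here.

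H3K27ac peaks were found in HoxA and HoxC at every stage and in HoxB and HoxD at none. HoxA held 26 peaks in proliferation, 31 at 36 h and 29 at 72 h. HoxC held 39, 33 and 30 peaks at the same stages. With lists reduced to equal numbers of peaks, HoxA held 26, 23 and 20, so that its order turned and proliferation had the most. Peaks covered 25.9, 31.1 and 26.9 kb of HoxA, which is 19.9%, 23.9% and 20.7% of its window. They covered 42.3 kb, 48.4 kb and 38.4 kb of HoxC, or 31.3%, 35.8% and 28.5%. HoxC was the more densely covered of the pair at each stage. Its peak number was highest in proliferation while its covered length was highest at 36 h. The median width of HoxC peaks was 386, 513 and 624 bp for proliferation, 36 h and 72 h, against 363, 376 and 393 bp for whole lists. In HoxA the median width was 545, 384 and 748 bp. With a −log10 q of at least 5, HoxC had 23, 26 and 21 peaks, so that its number was then highest at 36 h. Peaks over 2 kb numbered 5, 5 and 3 in HoxA and 7, 8 and 5 in HoxC, while 2.61%, 4.53% and 5.25% of all peaks of the lists were that wide.

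**Figure D1:**
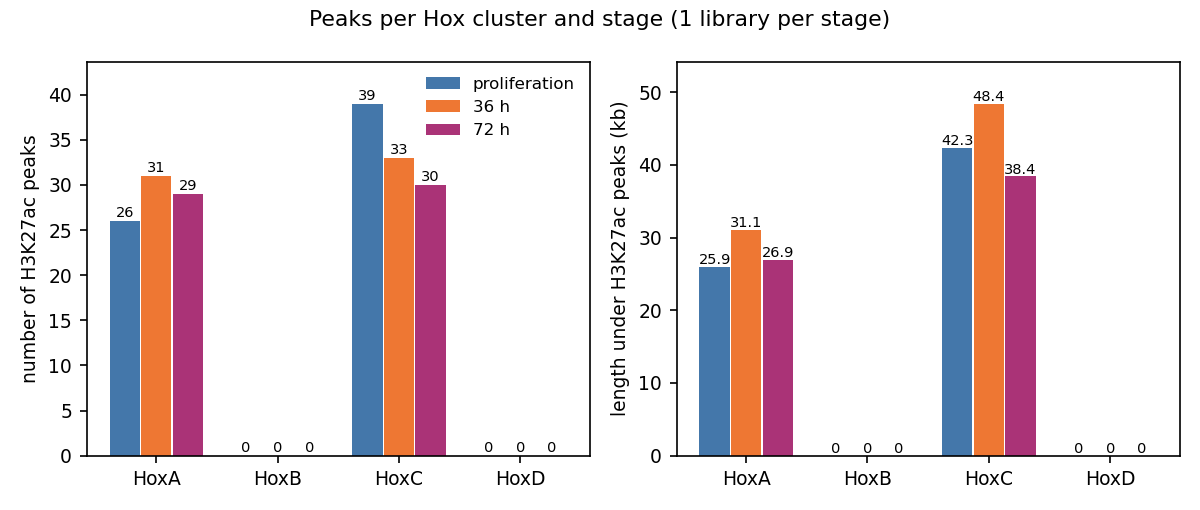
Number of H3K27ac peaks (left) and length under peaks in kb (right) in each Hox window, with 1 bar per library for proliferation, 36 h and 72 h of differentiation and no error bars, since each stage had 1 library. HoxA holds 26 to 31 peaks, HoxC 30 to 39, and HoxB and HoxD hold 0 at each stage.

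HoxB and HoxD lay inside longer stretches without a call. For HoxB, the nearest peak of any list ended 103 kb below the window and the next began 29.1 kb above it, beyond the Hoxb1 end, so that 327 kb held no peak at any stage. For HoxD the distances were 72.5 kb below the window, beyond the Hoxd13 end, and 48.4 kb above it, beyond the Hoxd1 end, and the peak-free stretch was 246 kb. The stretches were of nearly the same length in each list, at 327, 331 and 331 kb around HoxB and 246 kb at each stage around HoxD. Of 112677 gaps between merged peaks of the 3 lists, 1225 (1.09%) were at least as long as that around HoxB and 1621 (1.44%) at least as long as that around HoxD. Windows without a peak were common by themselves: 37.5% of 13510 genome tiles of the length of the HoxB window, and 44.3% of 21081 tiles of the length of HoxD, held no peak at any stage. The tiles were counted from the start of each chromosome, including the stretch before its first peak. They were not matched to the windows for gene or CpG content, so these shares do not apply to gene-rich windows as such. A missing call means that no site passed the threshold of the list, at which the weakest peaks had 8 or 9 summit fragments, and gives no level for the mark below it.

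HoxA and HoxC stood at the dense end of the genome. The covered share of HoxA was 16.3, 11 and 8.35 times the genome share for proliferation, 36 h and 72 h, and that of HoxC was 25.7, 16.4 and 11.5 times. Among 20270 tiles of the HoxA length, 29 had at least as much length under peaks as HoxA in proliferation, 136 at 36 h and 251 at 72 h. Among 19518 tiles of the HoxC length, 3, 20 and 68 had at least as much as HoxC. Tiles with at least 1 peak had a median of 1.96, 3.0 and 3.22 kb under peaks at the HoxA length, and the most covered tile had 53.5, 82.3 and 75.7 kb. Both clusters thus had fewer tiles ahead of them in proliferating than in differentiating cells.

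Against proliferation, the covered length of both clusters differed less than that of the genome, and from 36 h to 72 h it was shorter while that of the genome was longer. From proliferation to 36 h it was 1.20 times as long in HoxA and 1.14 times in HoxC, while the genome total was 1.79 times as long. From proliferation to 72 h the ratio was 1.04 in HoxA and 0.909 in HoxC, against 2.03 for the genome. From 36 h to 72 h it was 0.867 in HoxA and 0.795 in HoxC, against 1.14 for the genome. Tiles with at least 15% of their length under proliferation peaks were taken for comparison, a limit set after the data had been seen. The proliferation length is also the divisor of the ratios over proliferation. Choosing tiles where it is high can lower these ratios in the tiles, so the place of the clusters among them is partly set by the choice. The 110 such tiles of the HoxA length, which include tiles of the clusters themselves, had median ratios of 1.28, 1.25 and 1.02 for the same pairs, and the 97 of the HoxC length had 1.20, 1.24 and 1.03. For 36 h over proliferation, 47 of 110 tiles had the ratio of HoxA or a lower one and 39 of 97 that of HoxC or a lower one. For 72 h over proliferation the numbers were 27 of 110 and 18 of 97. For 72 h over 36 h, 5 of 97 had a ratio as low as that of HoxC and 18 of 110 one as low as that of HoxA. With lists reduced to equal numbers of peaks, the 72 h to proliferation ratio of HoxA was 0.957.

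In HoxA the mark was concentrated toward the high-number side of the window but stopped short of its end. Distances here and below are counted in kb from the end of the window with the low paralog numbers, which is the Hoxa2 side in HoxA and the Hoxc4 side in HoxC. Peaks of HoxA ran from 5.3 to 108.3 kb, and the last 21.7 kb, at the Hoxa13 end, held none at any stage. The middle of the covered bases lay at 86.0, 83.4 and 83.9 kb for proliferation, 36 h and 72 h. The main block of peaks, in which neighbouring peaks of any stage were less than 1 kb apart, spanned 75.1 to 90.0 kb (chr6:52170067-52184988, 14.9 kb). It was covered over 12.6, 13.9 and 12.7 kb by 11, 7 and 11 peaks. A block at 92.5 to 96.1 kb was covered over 2.94, 3.28 and 3.35 kb, and one at 98.6 to 104.9 kb over 5.70, 5.06 and 3.61 kb. A separate block at 13.4 to 16.3 kb had 1.94, 2.33 and 2.67 kb. Between these, 27.7 kb from 16.3 to 44.1 kb formed the longest inner stretch without a peak.

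The longest HoxA peak measured 3412 bp in proliferating cells, 6075 bp at 36 h (chr6:52175327-52181401) and 3298 bp at 72 h. The 36 h peak ranked 129 by width among the 89717 peaks of its list. The highest fold enrichments of HoxA, which are the authors' values and were compared only within a list, were 16.3 in proliferation, 21.3 at 36 h and 19.7 at 72 h. They lay at the 97.7, 96.4 and 95.6 percentile of their lists.

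**Figure D2:**
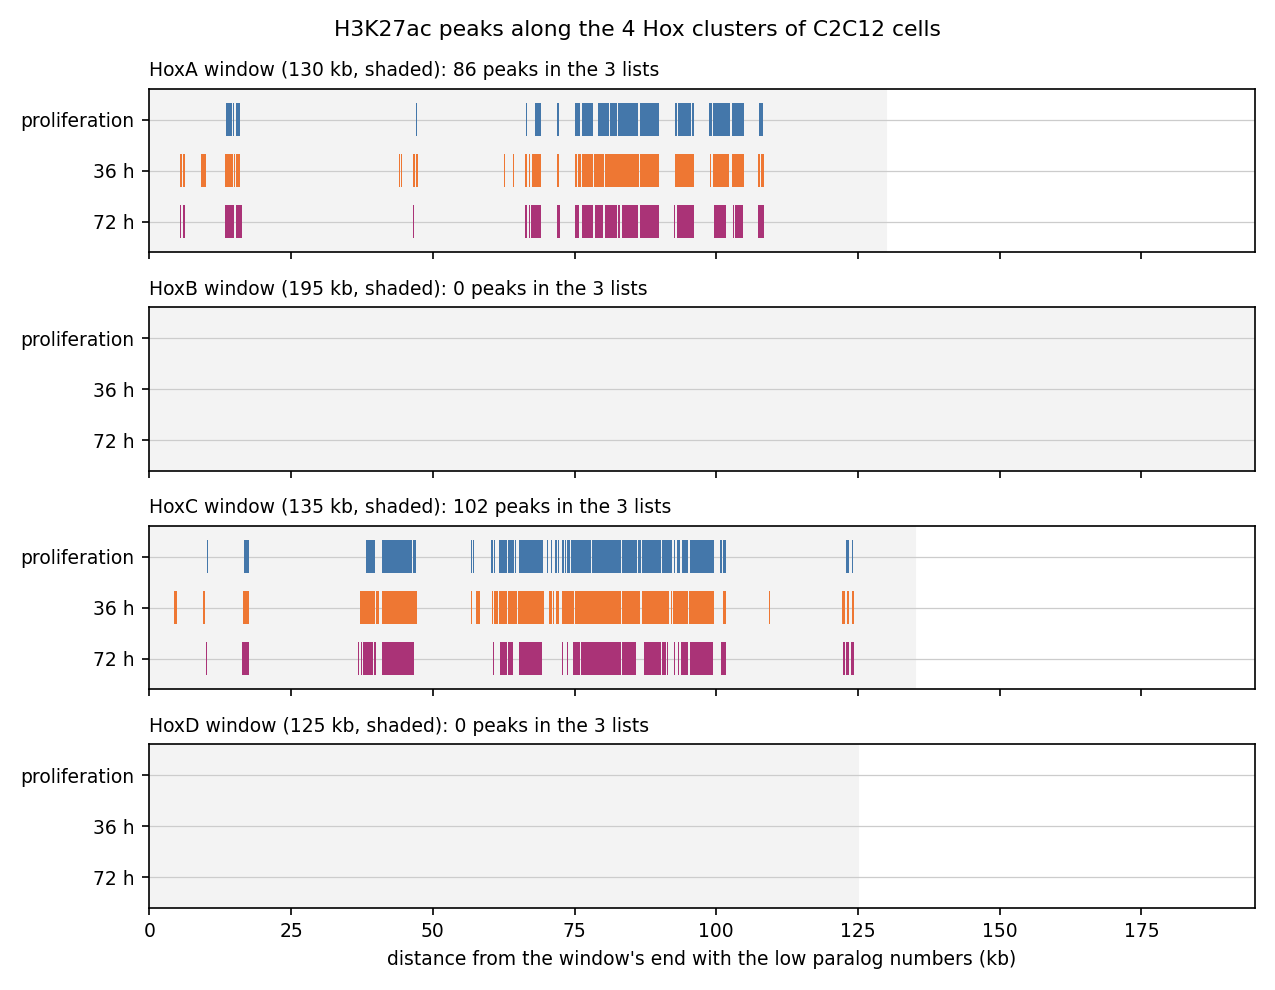
H3K27ac peaks along the windows of the 4 Hox clusters, in kb from the end with the low paralog numbers, with 1 row of bars per library (proliferation, 36 h, 72 h) and bars to scale. HoxA has its main block at 75.1 to 90.0 kb, HoxC has blocks at 36.8 to 47.1 kb and 60.3 to 99.6 kb, and HoxB and HoxD have no bar.

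HoxC carried 9 blocks of peaks by the same rule, 2 of them long and some of the short ones near both ends. The larger block spanned 60.3 to 99.6 kb (chr15:102775399-102814664, 39.3 kb), and 31.8, 34.8 and 26.8 kb of it were covered, by 27 peaks in proliferation, 18 at 36 h and 19 at 72 h. It thus held most of the covered length of the cluster at each stage. The smaller block spanned 36.8 to 47.1 kb (chr15:102827861-102838245, 10.4 kb) and was covered over 7.34, 9.17 and 8.04 kb. The stretch between 17.6 and 36.8 kb, 19.2 kb long, was the longest without a peak at any stage. A short block at 100.7 to 101.7 kb was called at each stage, with up to 73, 100 and 80 summit fragments. Another at 56.7 to 58.2 kb held 2, 3 and 0 peaks. In contrast to HoxA, peaks were also called near the high-number end, at 122.3 to 124.3 kb, with 0.828, 1.27 and 1.36 kb. The middle of the covered bases stayed at 77.7, 76.2 and 78.1 kb.

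The longest peak of HoxC was the longest of any Hox peak, with 8067 bp at 36 h (chr15:102791806-102799872, 75.1 to 83.2 kb), which ranked 42 by width in its list. In proliferation the longest had 5355 bp and ranked 34, and at 72 h 5565 bp and ranked 236. The highest fold of HoxC was 21.1 for proliferation and 35.1 for 36 h, both in the region at 41.0 to 47.1 kb, and 28.8 at 72 h at 65.1 to 69.2 kb. These were the 99.5, 99.7 and 99.1 percentile of their lists.

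In bins of 5 kb, 11 of 26 bins of HoxA and 8 of 27 bins of HoxC had no peak at any stage. Bins with more than 4 kb under peaks numbered 3, 4 and 2 in HoxA and 5, 7 and 4 in HoxC for proliferation, 36 h and 72 h. The difference between stages was largest at 70 to 75 kb of HoxC, where the 3 stages had 2.52, 3.12 and 0.63 kb in order. The bin at 90 to 95 kb had 3.77, 4.46 and 2.62 kb, that at 60 to 65 kb 2.89, 3.85 and 2.27 kb, and that at 85 to 90 kb 4.50, 4.68 and 3.46 kb. These 4 bins, all in the larger block, were highest at 36 h and lowest at 72 h. Bins between them, at 75 to 80 kb (4.84, 4.87 and 4.77 kb) and 80 to 85 kb (4.76, 4.80 and 4.73 kb), were nearly filled at each stage. The bin at 35 to 40 kb went another way, with 1.53, 2.54 and 2.48 kb.

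In HoxA the largest difference was at 5 to 10 kb, where no peak was called in proliferation, 1.56 kb was covered at 36 h and 0.67 kb at 72 h. The bin at 100 to 105 kb had 4.60, 4.40 and 3.21 kb, and was shortest at 72 h. The bin at 65 to 70 kb had 1.39, 2.15 and 2.18 kb. At 75 to 80 kb the values were 3.57, 4.25 and 3.99 kb, and at 80 to 85 kb 4.46, 4.93 and 4.21 kb.

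**Figure D3:**
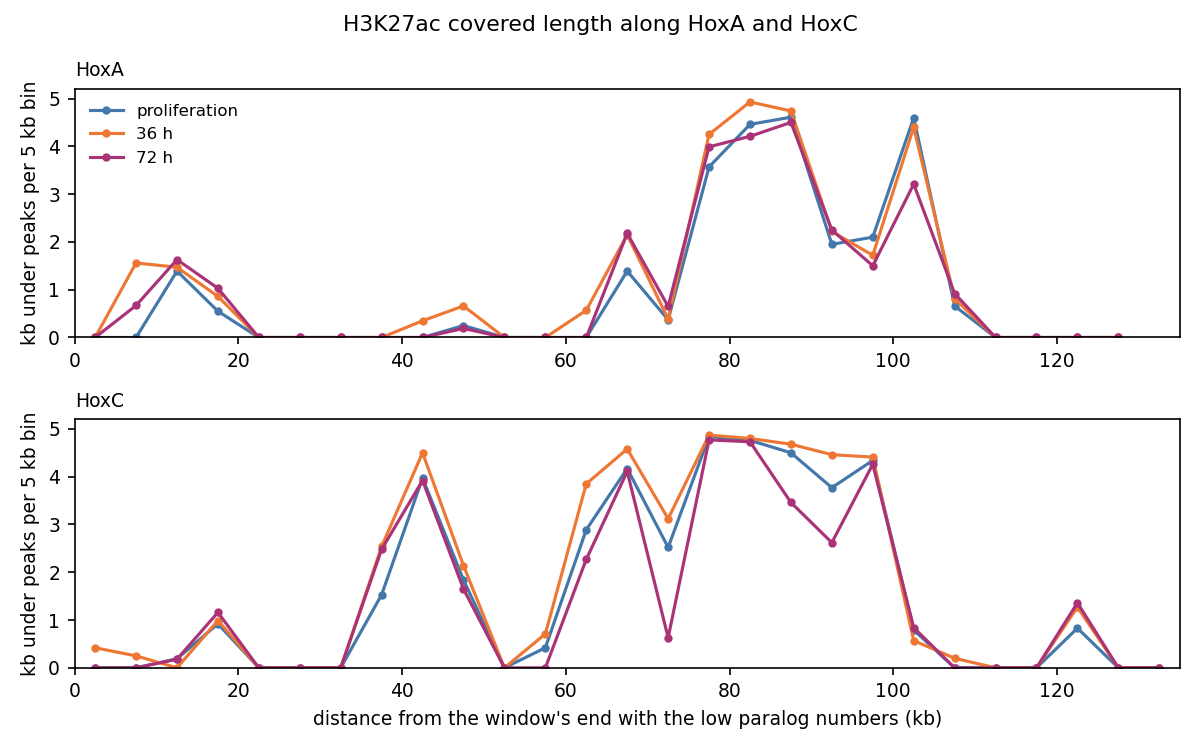
Length under H3K27ac peaks in each 5 kb bin of HoxA and HoxC (kb per bin) against the distance in kb from the end of the window with the low paralog numbers, with 1 line per library. The widest gaps between the lines are at 70 to 75 kb of HoxC, where 72 h falls to 0.63 kb, at 90 to 95 and 60 to 65 kb of HoxC, and at 5 to 10 kb of HoxA, where proliferation has 0 kb.

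Peaks that overlapped across the lists were joined into 112926 regions over the genome, and each region was classed by the stages that held a peak in it. Peaks were present at all 3 stages in 14 of the 26 HoxA regions (53.8%) and in 18 of the 34 HoxC regions (52.9%). Over the genome 25.6% of regions were of that class. Regions gained in differentiation, with peaks at 36 h and 72 h but not in proliferation, numbered 4 in HoxA (15.4%) and 2 in HoxC (5.88%), against 22.3% over the genome. No HoxA region and 2 HoxC regions (5.88%) were called in proliferation alone, against 6.70%. Regions called at 36 h alone numbered 6 in HoxA (23.1%) and 7 in HoxC (20.6%), against 15.9%. Regions called at 72 h alone numbered 0 in HoxA and 1 in HoxC (2.94%), against 23.9%. Peaks in proliferation and at 36 h but not at 72 h were found in 2 HoxA regions (7.69%) and 3 HoxC regions (8.82%), against 1.70%, and peaks in proliferation and at 72 h but not at 36 h in 0 and 1 (2.94%), against 3.95%. The clusters thus had a larger share of regions common to all stages than the genome and a smaller share of regions first called at 72 h. Over the genome, regions of all 3 stages had a median width of 1119 bp, and those of 36 h or 72 h alone 212 and 233 bp. The genome regions were not matched to the clusters for width, signal or density of peaks, and the part of these in the shares was not tested. With gaps of up to 1 kb merged, 8 of 13 HoxA regions and 6 of 9 HoxC regions were of all 3 stages. With lists of equal number HoxC had 0 gained regions and 5 of proliferation alone. The genome shares under these settings were not computed.

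The regions of 1 stage and the gained regions of both clusters were at most 793 bp wide and had at most 30 summit fragments. In HoxA the 4 gained regions lay at 5.3 to 5.8 kb, 5.9 to 6.3 kb, 46.4 to 46.8 kb and 66.9 to 67.2 kb. They had 26, 30, 18 and 19 summit fragments at 36 h and 12, 20, 13 and 13 at 72 h. The 6 regions of 36 h alone had 11 to 27 fragments, the strongest of them at 9.2 to 9.9 kb. In HoxC the gained regions were at 37.2 to 37.7 kb, with 21 and 15 fragments at 36 h and 72 h, and at 122.3 to 122.8 kb, with 21 and 24. The HoxC regions of proliferation alone were at 57.1 to 57.3 kb with 17 fragments and at 70.1 to 70.3 kb with 20. The HoxC region of 72 h alone was at 36.8 to 36.9 kb with 14 fragments. The 7 HoxC regions of 36 h alone had 12 to 24 fragments. The 3 HoxC regions called in proliferation and at 36 h but not at 72 h were at 56.7 to 56.9 kb, 70.6 to 71.1 kb and 71.5 to 72.3 kb, with 15, 20 and 29 fragments in proliferation and 24, 20 and 20 at 36 h. The corresponding HoxA regions were at 47.0 to 47.3 kb, with 27 and 15 fragments, and at 98.6 to 99.2 kb, with 18 and 13. The HoxC region that skipped 36 h was at 10.1 to 10.4 kb, with 15 fragments in proliferation and 12 at 72 h. By comparison, the regions called at all 3 stages had a median width of 1542 bp in HoxA and 1676 bp in HoxC, against 1119 bp over the genome.

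**Figure D4:**
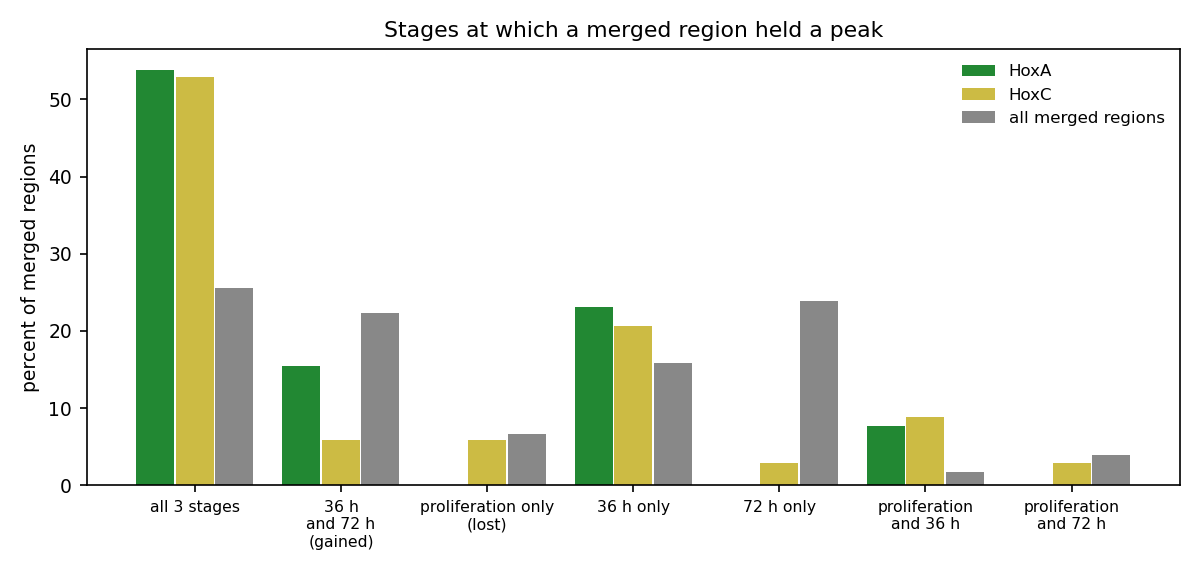
Percent of merged H3K27ac regions in each class of stages for HoxA (26 regions), HoxC (34 regions) and the genome (112926 regions), with 1 bar per set. Regions of all 3 stages make up 53.8% in HoxA and 52.9% in HoxC against 25.6% over the genome, and regions of 72 h alone 0% and 2.94% against 23.9%.

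Base pairs under peaks were largely the same between stages within the clusters. In HoxA, proliferation and 36 h shared 24.3 kb, which was 74.6% of their union, proliferation and 72 h shared 22.4 kb (73.7%), and 36 h and 72 h shared 25.1 kb (76.1%). In HoxC the shared lengths were 40.0 kb (79.0%), 35.4 kb (78.2%) and 37.0 kb (74.2%). The genome values, which were not matched for width or density of peaks, were 37.3%, 36.4% and 58.0%. Over the genome the 36 h and 72 h lists were thus closer to each other than either was to proliferation, whereas in both clusters the 3 pairs lay within a few percent of each other. In HoxC, 11.4 kb were covered at 36 h and not at 72 h, and 1.48 kb at 72 h and not at 36 h. In HoxA these lengths were 6.01 kb and 1.86 kb.

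Counted by peaks, 26 of 26 HoxA peaks of proliferation (100%, 95% Wilson interval 87.1 to 100%) overlapped a 36 h peak and 23 (88.5%, 71.0 to 96.0%) a 72 h peak. In HoxC, 35 of 39 (89.7%, 76.4 to 95.9%) overlapped a 36 h peak and 26 (66.7%, 51.0 to 79.4%) a 72 h peak. In the other direction, 28 of 29 HoxA peaks at 72 h (96.6%, 82.8 to 99.4%) and 28 of 30 HoxC peaks at 72 h (93.3%, 78.7 to 98.2%) overlapped a 36 h peak, and 22 (75.9%, 57.9 to 87.8%) and 27 (90.0%, 74.4 to 96.5%) a proliferation peak. Of 36 h peaks, 20 of 31 in HoxA (64.5%, 46.9 to 78.9%) and 24 of 33 in HoxC (72.7%, 55.8 to 84.9%) overlapped a proliferation peak, and 23 (74.2%, 56.8 to 86.3%) and 22 (66.7%, 49.6 to 80.2%) a 72 h peak. For whole lists, the share of proliferation peaks overlapped was 76.3% by 36 h and 82.0% by 72 h, that of 36 h peaks 42.2% by proliferation and 77.0% by 72 h, and that of 72 h peaks 40.2% by proliferation and 66.5% by 36 h. The Wilson intervals treat peaks as independent draws, whereas all called peaks of each window were counted and many were neighbours in the same block. In HoxC, 27 of the 39 proliferation peaks lay in the larger block. The intervals are therefore nominal. They measure neither the counting error of fragments nor the spread between cultures.

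The height of the mark was compared with the summit signal, the number of ChIP fragments at the summit multiplied by the recovered scale factor of its list and divided by the genome background of the library. The HoxC region at 41.0 to 47.1 kb (chr15:102827861-102834001), the strongest of the cluster in proliferation and at 36 h, had 124 fragments in proliferation, 156 at 36 h and 126 at 72 h. Its summit signal was 82.5 (95% Poisson interval 68.6 to 98.4), 86.9 (73.8 to 102) and 76.4 (63.6 to 91.0) times the genome background. The region at 65.1 to 69.7 kb, the strongest at 72 h, had 107, 121 and 130 fragments and a signal of 71.2, 67.4 and 78.8. The intervals of the 3 stages overlapped in both regions. The strongest HoxA region at 36 h, at 76.3 to 76.8 kb, had 62, 89 and 60 fragments and a signal of 41.3 (31.7 to 52.9), 49.6 (39.8 to 61.0) and 36.4 (27.8 to 46.9). The HoxA region at 86.5 to 90.0 kb had 57, 85 and 63 fragments and a signal of 37.9, 47.3 and 38.2. The highest HoxC signals were thus above the highest HoxA signals at each stage.

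Over regions called at all 3 stages, the summit signal differed by at least 1.5 times in few Hox regions. At 36 h, 0 of 14 HoxA and 1 of 18 HoxC regions were that much higher than in proliferation, against 15.0% of 28908 regions over the genome, and 0 and 0 were that much lower, against 19.1%. At 72 h, 1 HoxA and 0 HoxC regions were higher than in proliferation, against 24.6%, and 1 and 1 lower, against 10.6%. Between 36 h and 72 h, 0 and 0 were higher, against 19.6%, and 0 and 2 lower, against 3.71%. The genome regions were not matched to the Hox regions for summit fragments or width. Regions with few fragments pass 1.5 times more easily by counting error, and the part of this in the shares was not tested. The HoxC region higher at 36 h was at 92.4 to 92.8 kb, with 19, 42 and 15 fragments and a signal of 12.6 (7.59 to 19.7), 23.4 (16.9 to 31.6) and 9.09 (5.09 to 15.0). It was also among the 2 that were lower at 72 h than at 36 h, beside the region at 60.3 to 61.5 kb with 17, 28 and 13 fragments. The HoxC region lower at 72 h than in proliferation was at 92.9 to 95.1 kb, with 54, 46 and 34 fragments. In HoxA the region at 71.9 to 72.5 kb, with 17, 22 and 29 fragments, was higher at 72 h, and that at 75.1 to 76.1 kb, with 20, 18 and 14, was lower. Of 96 pairs of stages over these 32 regions, the Poisson intervals of the signal were apart in 1, the 36 h and 72 h values of the HoxC region at 92.4 to 92.8 kb. Intervals that stand apart are a stricter criterion than a direct comparison of 2 counts, which was not run. Overlap therefore does not place a difference within counting error.

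The median ratio of summit signal in HoxC was 0.962 for 36 h over proliferation, 0.918 for 72 h over proliferation and 0.878 for 72 h over 36 h, against 0.999, 1.13 and 1.15 over the genome. In HoxA the medians were 1.1, 0.979 and 1.01. At 72 h the signal was above that of 36 h in 4 of 18 HoxC and 8 of 14 HoxA regions, compared with 69.9% of regions over the genome. Without correction for depth these counts were 3 and 4, so that the HoxA majority turned, and the genome share was 56.2%. The 72 h signal was above that of proliferation in 5 of 18 HoxC regions and 7 of 14 HoxA regions, against a genome share of 62.4%. Without correction for depth the counts were 9 and 8, and the genome share 69.3%. Several of these medians changed side with the scaling. Without correction for depth, HoxC gave 1.15 for 36 h over proliferation and 1.01 for 72 h over proliferation, and HoxA gave 1.07 for 72 h over proliferation and 0.927 for 72 h over 36 h. With the local background subtracted, HoxC gave 1.05 for 36 h over proliferation and HoxA 1.04 for 72 h over proliferation. The HoxC ratio of 72 h over 36 h was 0.878, 0.806 without correction for depth and 0.880 with the local background subtracted. Leaving out the depth correction lowers every ratio of 72 h over 36 h by the same factor, because the 36 h library was the deeper. The value of 0.806 therefore could not have passed 1 and is no check of the direction. Subtracting the local background could have moved the ratio either way and left it below 1. By width, 13 of the 18 HoxC regions were narrower at 72 h than at 36 h and 5 were wider. In HoxA, 8 of 14 regions were wider (57.1%). Over the genome 55.6% were wider and 44.2% narrower.

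The local background recovered at these peaks was itself unequal. Its median at HoxA peaks was 1.98 times the genome background in proliferation, 1.06 at 36 h and 1.15 at 72 h, close to the whole lists with 1.93, 1.06 and 1.15. At HoxC peaks it was 2.97, 1.64 and 1.85, with a maximum of 8.90, 3.99 and 5.54. A given number of fragments therefore yields a lower fold in proliferation than later and a lower fold in HoxC than in HoxA. Its part in the differences of peak number was not tested.

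**Figure D5:**
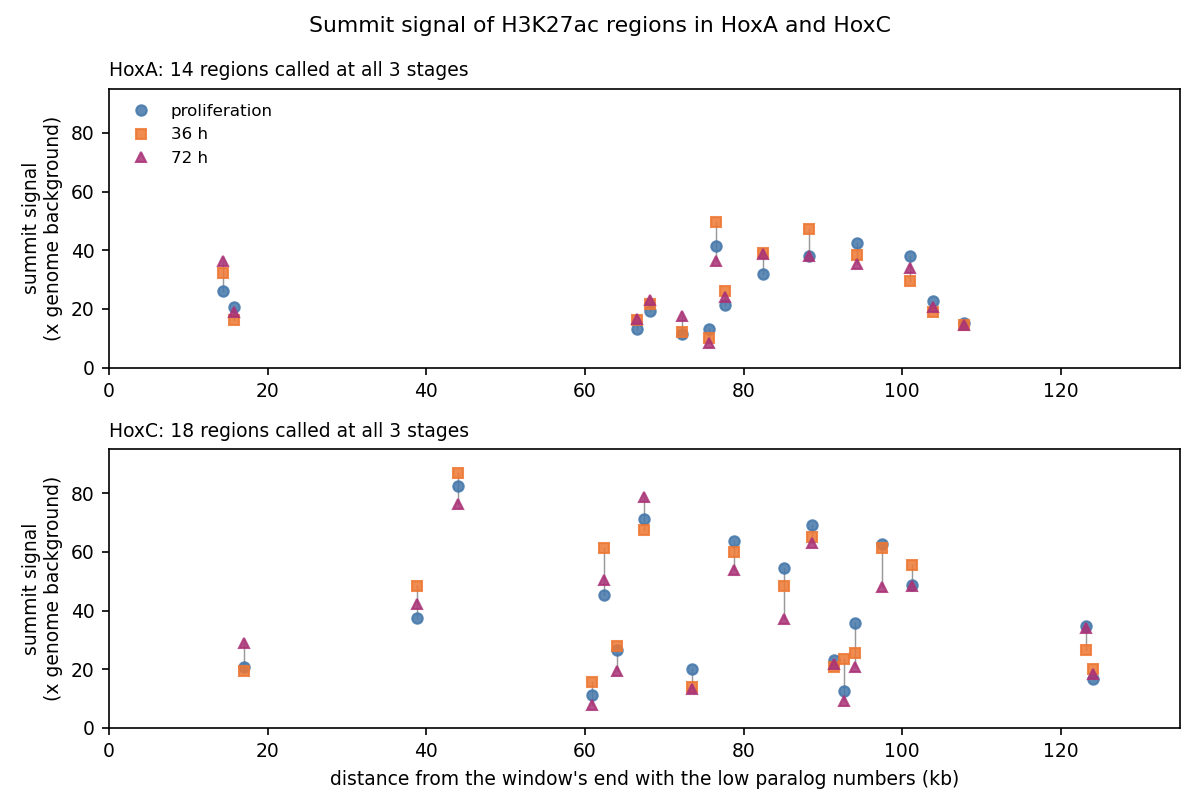
Summit signal (multiples of the genome background of each library) of the 14 HoxA and 18 HoxC regions called at all 3 stages, against their distance in kb from the end of the window with the low paralog numbers, with 1 symbol per library joined by a line for each region. HoxC reaches 86.9 at 36 h and HoxA 49.6, and the symbols of the 3 stages lie close together in most regions.

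The 100 kb on each side of the windows was counted in the same way. Beyond the Hoxc4 end of HoxC, 4 peaks covered 1.5 kb in proliferation, while 18 peaks over 10.8 kb were called at 36 h and 12 over 5.90 kb at 72 h. Beyond its Hoxc13 end the covered length was 1.47, 1.43 and 1.38 kb. On the low-number side of HoxA there was no peak in proliferation, 9 peaks over 3.19 kb at 36 h and 8 over 4.61 kb at 72 h. On the Hoxa13 side there were 0, 1 and 0 peaks. Beyond the Hoxb1 end of HoxB, 6, 3 and 9 peaks covered 2.04, 1.61 and 4.61 kb, and on the Hoxb13 side there was none. HoxD had 2 peaks at each stage within 100 kb of its Hoxd13 end (0.867, 0.877 and 0.657 kb) and 1 at each stage within 100 kb of its Hoxd1 end (0.611, 1.06 and 0.975 kb). At each cluster the stretch next to the low paralog numbers differed most in covered length between stages, but the other side often had little to differ. The high-number side held at most 0.261 kb at HoxA and none at HoxB, and the low-number side of HoxD held 1 peak per stage. Over the genome 1.22%, 2.18% and 2.48% lay under peaks in order of stage. These stretches were added after their values had been seen, and no link to paralog number was tested. At HoxD neither side exceeded 1.06 kb at any stage.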

How the data were processed

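ChIP and input libraries of C2C12 cells were sequenced at 3 stages, with 1 H3K27ac library per stage. The submitters' processing notes name BWA, MACS2, deepTools and build mm9, and their versions and parameters were not given in the sources used here. By the narrowPeak column order of the deposited files, the authors' values for each peak are a position, a score, a fold enrichment (a ratio) and the summit's −log10 p and −log10 q. The deposited lists begin at a −log10 q of 1.32, 1.32 and 1.30.

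Summit fragments and local background were solved from the authors' fold and −log10 p, with fold read as pileup plus 1 over background plus 1 and the p-value as a Poisson upper tail of the pileup. With scale factors of 0.673, 0.698 and 0.657 the solution returned 100% of the deposited −log10 p within a relative tolerance of 0.0003, and it was unique for 99.4%, 99.5% and 99.6% of peaks. On simulated peaks it gave the right fragment number for 100% of 4991, 4996 and 4996 peaks for the 3 lists. The depth is relative, and Poisson intervals cover counting error only. The scaling assumes equal genome size settings in each run, and reading the background as input assumes that the input was the control of the peak calls. Neither setting was stated.

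Peaks were cut at the window bounds for covered lengths. Peaks overlapping by at least 1 bp were merged into regions. Blocks joined regions less than 1 kb apart. Named regions were, per cluster, the longest peak and the peak with the highest fold in each list, the regions of 1 stage, gained or skipping a stage, the 5 bins with the largest difference in covered length, and the longest stretch without a peak. The strongest regions of all 3 stages and the 100 kb beside the windows were added after their values had been seen. The members and lists were chosen with earlier results of these data known. Gene order, microRNAs and promoters came from RefSeq tables on GRCm38.p6, and no position was converted between builds. Alternatives covered the threshold, list size, depth, window membership, merging, overlap and scaling. Python 3.11.15, numpy 2.4.6, pandas 2.3.3, scipy 1.17.1, statsmodels 0.14.6 and matplotlib 3.10.9 were used.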

Additional observations from a re-analysis of the deposited data

How the results depend on the processing

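Of 214 values recomputed under alternatives, 191 kept their direction and stayed within the limit set for that value (1.5 times for counts), 15 moved further and 8 turned direction. HoxB and HoxD held 0 peaks under each alternative run. This was fixed in advance, because the alternatives only removed, merged or recounted called peaks and could add none. Their 0 values are among the 191 and could not move. Thinning the ChIP fragments to equal depth, setting ChIP and input to equal depth, and counting peaks by summit moved none of 30 values each past that limit. These 30 include the 0 values of HoxB and HoxD. The first 2 settings dropped whole peaks and left the proliferation list unchanged. Thinning to equal depth scaled the remaining fragments back up over the same background, so only counting noise near the cutoff could drop a peak. Neither of the 2 settings recomputed peak widths, so they cannot show how depth affected the covered lengths. Thinning took HoxC at 36 h from 33 to 32 peaks. Equal ChIP and input depth took HoxA from 31 to 30 peaks at 36 h and from 29 to 28 at 72 h. No peak crossed a window bound, so counting by summit could change nothing. With a −log10 q of at least 5, HoxC had 23 peaks in proliferation, HoxA had 1 lost region, and HoxC had 0 gained and 1 lost. With lists of equal number, the covered-length ratio of 72 h over proliferation in HoxA turned to 0.957, the HoxA peak numbers became 26, 23 and 20, HoxA had 1 gained and 2 lost regions, and HoxC had 0 gained and 5 lost. Merging across gaps of up to 1 kb left 13 regions in HoxA, of which 8 were of all 3 stages and 1 was gained. In HoxC it left 9, of which 6 were of all 3 stages, 0 gained and 0 lost. Counting a peak as overlapped from 50% of its length gave 48.5% for HoxC peaks of 36 h at 72 h and 73.3% for HoxC peaks of 72 h in proliferation. Without scaling for depth, the strongest HoxC summit of 72 h over proliferation turned from 0.955 to 1.05, and the median summit ratio turned to 1.15 (HoxC, 36 h over proliferation), 1.01 (HoxC, 72 h over proliferation), 1.07 (HoxA, 72 h over proliferation) and 0.927 (HoxA, 72 h over 36 h). With the local background subtracted it turned to 1.05 (HoxC, 36 h over proliferation) and 1.04 (HoxA, 72 h over proliferation). Leaving out the depth scaling could only raise ratios over proliferation and lower those of 72 h over 36 h. Ratios already on that side, such as the HoxC median of 72 h over 36 h, could not turn under it. The cause of the shifts under the other settings was not tested. The setting with ChIP and input at equal depth and the alternatives for the median summit ratio were chosen after seeing the data. No paired analysis was possible because each stage had 1 library, and for the same reason no library could be left out. Depth limits what is called to sites with at least 8 or 9 summit fragments.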
